A study of Mus musculus with 6 samples.

Results

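The genes described here are mouse members of 2 families of cysteine-type deubiquitinases, the OTU (ovarian tumour domain) family and the Josephin family, as they were expressed in germinal centre B cells. A list of 9 genes was followed: Josd1, Josd2 and Atxn3 of the Josephin family and Otud4, Otud5, Otud6b, Otud7b, Otub1 and Otub2 of the OTU family. Members were the probe sets annotated to exactly 1 of these symbols, and the brightest probe set (highest mean over the 6 arrays) stood for its gene. Of the 9 genes 8 were measured, by 19 of the 45101 probe sets, among 18193 genes tested. Josd1 has no value here, because its single listed probe set (1460676_at) was annotated to a second gene as well.

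After immunisation with sheep red blood cells, germinal centre B cells were isolated from mouse spleens with magnetic beads, and their total RNA was hybridised to Affymetrix mouse 430 2.0 arrays. ImHABCL6/Uchl1 mice carried the ImHABCL6 allele and a transgene for the deubiquitinase Uchl1 (3 arrays), and ImHABCL6 mice carried the ImHABCL6 allele alone (3 arrays). That allele, shared by both groups, drives tagged BCL6, the repressor that defines germinal centre B cells, from the immunoglobulin heavy-chain locus. Both groups thus carried tagged BCL6 under the control of that locus, and mice without the allele were not analysed here. The sources used here do not give the promoter of the Uchl1 transgene or the strain, age and sex of the mice. All values are the authors' deposited log2 expression levels, on which 1 unit is a doubling, and differences are ImHABCL6/Uchl1 minus ImHABCL6.

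Ubiquitin is a small protein that is attached to other proteins through E1, E2 and E3 enzymes and marks them for degradation by the proteasome or alters their activity, and deubiquitinases remove it. OTU enzymes often prefer particular ubiquitin chain types and several of them restrain NF-κB and interferon signalling, pathways that matter in B cells. The Josephin domain is best known from ataxin-3 (Atxn3), whose polyglutamine expansion causes Machado-Joseph disease in humans.

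Uchl1 read 5.96, 5.87 and 6.02 in the ImHABCL6/Uchl1 arrays, against 5.013, 4.999 and 5.019 in the ImHABCL6 arrays, so the transgene's own gene followed the labels. Bcl6 averaged 11.38 ± 0.23 in ImHABCL6/Uchl1 cells and 11.14 ± 0.09 in ImHABCL6 cells (SD, n = 3 each). The 10 measured of 12 germinal centre B-cell markers had a mean level of 10.64 to 11.17 in ImHABCL6/Uchl1 arrays and 10.76 to 10.80 in ImHABCL6 arrays. Red-cell precursor transcripts gave strong signals too: the 13 measured of 17 erythroid markers averaged 8.93, 10.75 and 10.23 in ImHABCL6/Uchl1 replicates 1 to 3 and 10.40, 10.88 and 11.29 in ImHABCL6 replicates 1 to 3, and 12 of the 13 were lower in ImHABCL6/Uchl1 cells. The sum of their log2 levels ran from 116 to 140 in ImHABCL6/Uchl1 arrays and from 135 to 147 in ImHABCL6 arrays. That sum restates the means on another scale and is not a total amount of RNA. The anion exchanger Slc4a1 read at least 11.93 on every array, while the 1 measured globin probe set (Hba-a1) was dim. ImHABCL6/Uchl1 replicate 1 was thus the array with the least erythroid RNA. Fewer cells of a type and less RNA per cell cannot be told apart in such bulk samples. With 3 arrays a group, precision is limited throughout, and the values came without detection calls.

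Across the family, 7 of the 8 measured genes had a lower mean level in ImHABCL6/Uchl1 cells, with the largest negative differences in Josd2 and Otud5, and Otub1 alone had a higher one. None passed the test. With limma and Benjamini-Hochberg adjustment over all genes, 0 of the 8 genes had an adjusted p under 0.05, as did 0 of 18193 genes (0%), and the adjusted p of the 8 ran from 0.983 to 0.998. At an unadjusted p under 0.05 there were 2 of the 8, Josd2 and Otud5, both lower, where 4.94% of all genes were at that level (898 genes) and 3.85% were at it and lower. Without ImHABCL6 replicate 2 the numbers were 0 of the 8 and 493 of all genes, and without ImHABCL6 replicate 3 they were 1 of the 8 and 387 of all genes. The median difference of the 8 genes was -0.17, beside 0.0029 over all genes, of which 49.4% were lower. Both the count and the median moved with single mice. Without ImHABCL6/Uchl1 replicate 2, 4 of the 8 were lower and their median was -0.02, and without ImHABCL6/Uchl1 replicate 1, 6 of the 8 were lower and their median was -0.37. With the erythroid mean as a covariate 6 were lower and the median was -0.31, and with array weights 7 were lower and it was -0.08. Without any 1 of the other 4 arrays 6 or 7 of the 8 were lower, with medians of -0.22 to -0.16.

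**Figure D1:**
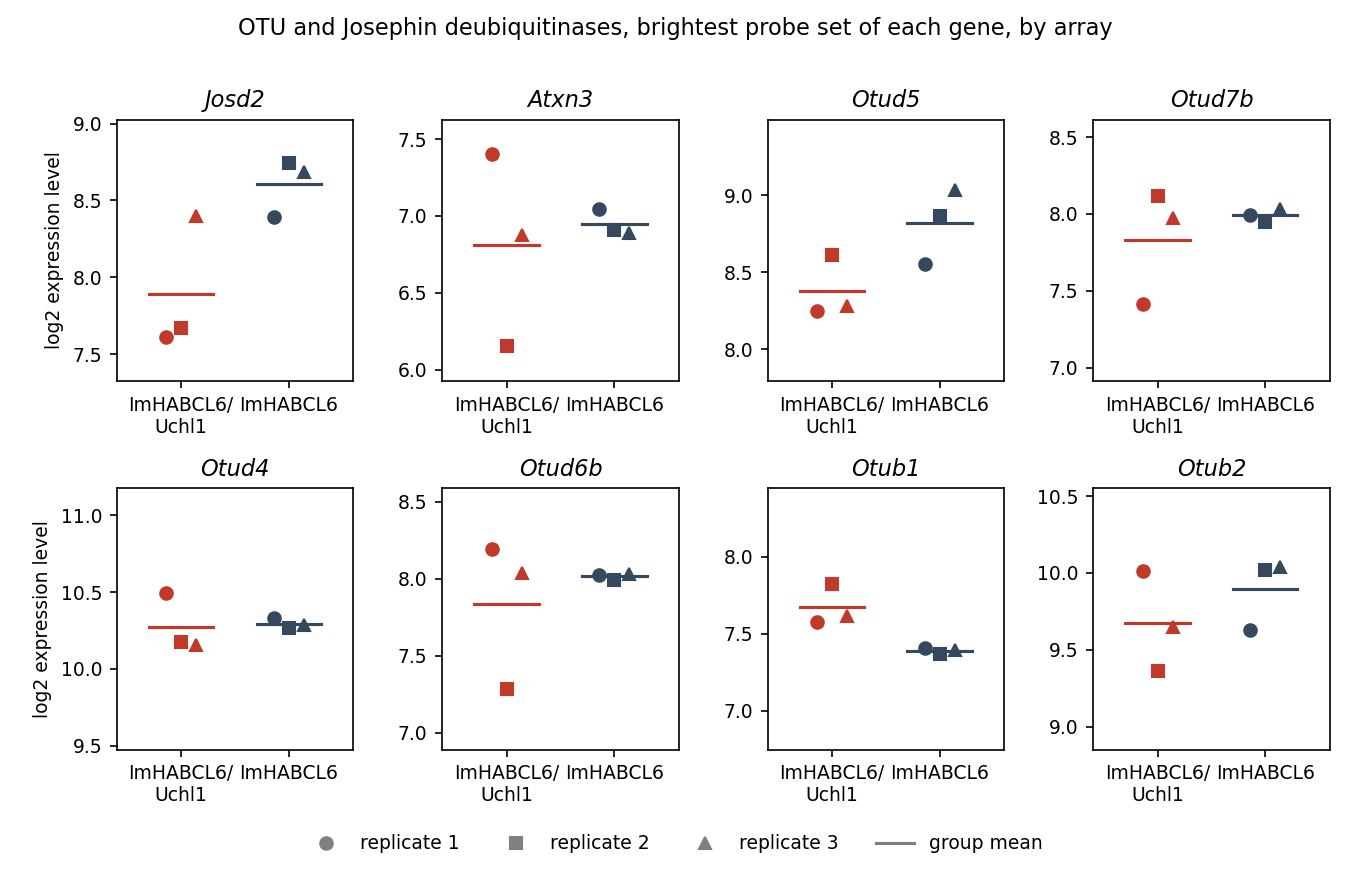
Each panel shows 1 gene, with the log2 expression level of its brightest probe set on the vertical axis (every panel spans the same height) for the 3 ImHABCL6/Uchl1 arrays in red and the 3 ImHABCL6 arrays in blue. Symbols give the replicate number and lines the group mean. Otub1 is the 1 gene whose groups do not overlap, and in Otud6b and Atxn3 a single ImHABCL6/Uchl1 array, replicate 2, lies far below the rest.

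Josd2, a small enzyme made of little more than the Josephin domain, had the largest difference of the family. Its single probe set (1449046_a_at) read 7.61, 7.67 and 8.40 in ImHABCL6/Uchl1 replicates 1 to 3, against 8.39, 8.74 and 8.68 in ImHABCL6 replicates 1 to 3. Both low values came from replicates 1 and 2 of the transgenic group, while replicate 3 lay 0.01 above the lowest ImHABCL6 array, so the groups touched. The means were 7.89 ± 0.44 in ImHABCL6/Uchl1 cells and 8.60 ± 0.19 in ImHABCL6 cells (SD, n = 3 each), a 1.64-fold lower level. The log2 difference was -0.71 (SE 0.23, 95% interval -1.24 to -0.19, limma adjusted p = 0.983, unadjusted p = 0.0141), and it ranked 254th of all genes by p. The exact permutation test (two-sided, over these 6 values) gave p = 0.2, where 0.1 is the smallest that 3 arrays against 3 allow. Josd2 stayed lower in all 15 alternatives run, between -0.96 and -0.39, the latter with array weights. Those weights were 0.51, 0.30 and 3.30 for ImHABCL6/Uchl1 replicates 1 to 3, so replicate 3 counted most in that group. The unadjusted limma p of Josd2 was 0.068 with array weights and 0.072 with the erythroid mean as a covariate. It was 0.052 without ImHABCL6 replicate 2, and under 0.05 in the remaining alternatives. Several of the 15 could only return -0.71 again. These were the mean of all probe sets, the separate fit of all probe sets, the removal of dim genes, the trend and robust options and the replicate block.

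Atxn3 encodes ataxin-3, which trims ubiquitin chains in protein quality control together with the segregase VCP. Its brighter probe set (1434408_at) read 7.40, 6.15 and 6.88 in ImHABCL6/Uchl1 replicates 1 to 3, against 7.05, 6.91 and 6.89 in ImHABCL6 replicates 1 to 3. The highest and the lowest of the 6 values were both from transgenic mice, and the ImHABCL6 arrays lay between them within a range of 0.15. The difference of -0.14 (SE 0.28, 95% interval -0.79 to 0.51, limma adjusted p = 0.998) was smaller than the spread between replicates, and without ImHABCL6/Uchl1 replicate 2 it was 0.19. The second probe set (1440855_at) was dim, at 5.37 ± 0.14 in ImHABCL6/Uchl1 cells and 5.47 ± 0.16 in ImHABCL6 cells (SD, n = 3 each).

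Otud5 and Otud7b both act on the adaptor TRAF3, and Otud5 had the larger difference. Otud5, also called DUBA, removes ubiquitin from TRAF3 and thereby limits type I interferon production. Its brightest probe set (1453865_a_at) read 8.25, 8.61 and 8.28 in ImHABCL6/Uchl1 replicates 1 to 3, against 8.55, 8.87 and 9.04 in ImHABCL6 replicates 1 to 3. The groups overlapped through 1 pair of arrays, ImHABCL6/Uchl1 replicate 2 and ImHABCL6 replicate 1. The means were 8.38 ± 0.20 in ImHABCL6/Uchl1 cells and 8.82 ± 0.25 in ImHABCL6 cells (SD, n = 3 each), a 1.35-fold lower level. The difference was -0.44 (SE 0.17, 95% interval -0.84 to -0.03, limma adjusted p = 0.992, unadjusted p = 0.0366, exact permutation p = 0.2). All 4 Otud5 probe sets were lower in ImHABCL6/Uchl1 cells. The other 3 differed by -0.43 (SE 0.29, 1435573_at), -0.29 (SE 0.41, 1438985_x_at) and -0.45 (SE 0.17, 1436262_x_at) on the log2 scale. With the mean of all its probe sets the unadjusted limma p of Otud5 was 0.140. Without probe sets of the endings _a_at, _s_at and _x_at it was 0.173. The 4 Otud5 probe sets are annotated to the same gene and are not independent.

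The dimmest of these, 1436262_x_at, was the 1 member probe set whose ImHABCL6/Uchl1 arrays all lay below the ImHABCL6 arrays, at 5.53, 5.60 and 5.45 against 5.81, 5.77 and 6.33. That was 1 of 19 probe sets of the family, while 4.49% of all probe sets separated in this direction. The erythroid mean moved with Otud5: the lowest of the 6 Otud5 levels was on the array of the least erythroid RNA, and the highest on ImHABCL6 replicate 3, the array with the most. This was not particular to Otud5. Its Pearson r with the erythroid mean over the 6 arrays was 0.85, beside 0.90 for Otud7b and 0.66 for Josd2. For the other members r was negative, from -0.67 (Otud4) to -0.11 (Otub2). With the erythroid mean as a covariate the Otud5 difference was -0.23 (limma adjusted p = 0.521).

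Otud7b, known as Cezanne, also targets TRAF3 and restrains the non-canonical NF-κB pathway. Its brightest probe set (1428953_at) read 7.41, 8.11 and 7.97 in ImHABCL6/Uchl1 replicates 1 to 3, against 7.99, 7.95 and 8.03 in ImHABCL6 replicates 1 to 3. A single low array, ImHABCL6/Uchl1 replicate 1, made the mean difference of -0.16 (SE 0.19, 95% interval -0.60 to 0.28, limma adjusted p = 0.998). Without that array the difference was 0.05, and with the erythroid mean as a covariate it was 0.13. The same array was also the lowest for probe set 1435552_at (7.15) and for 1429139_at (6.17), although not for the dim 1457716_at. All 4 Otud7b probe sets had small negative differences, from -0.18 to -0.04.

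Otud4, an enzyme that also acts as a scaffold in the repair of alkylated DNA, showed the smallest difference of the family. It read 10.49, 10.17 and 10.16 in ImHABCL6/Uchl1 replicates 1 to 3, against 10.33, 10.26 and 10.29 in ImHABCL6 replicates 1 to 3 (1434468_at). The transgenic arrays lay on both sides of the ImHABCL6 arrays, and the difference was -0.02 (SE 0.14, 95% interval -0.34 to 0.30, limma adjusted p = 0.998), or 0.0599 after quantile normalization. The other 2 probe sets pointed opposite ways, at -0.17 (1434469_at) and 0.16 (1431039_at).

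Otud6b, a less studied member linked in humans to a neurodevelopmental disorder, was almost constant in all but 1 mouse. It read 8.20, 7.28 and 8.04 in ImHABCL6/Uchl1 replicates 1 to 3, against 8.025, 7.995 and 8.033 in ImHABCL6 replicates 1 to 3 (1428277_at). ImHABCL6/Uchl1 replicate 2 was lower than the ImHABCL6 mean by 0.74, and the other 2 transgenic arrays were above every ImHABCL6 array. The difference was -0.18 (SE 0.23, 95% interval -0.71 to 0.35, limma adjusted p = 0.998), and without ImHABCL6/Uchl1 replicate 2 it was 0.10. Atxn3 and Otud6b therefore had the same extremes, with the highest level in ImHABCL6/Uchl1 replicate 1 and the lowest in its replicate 2.

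**Figure D2:**
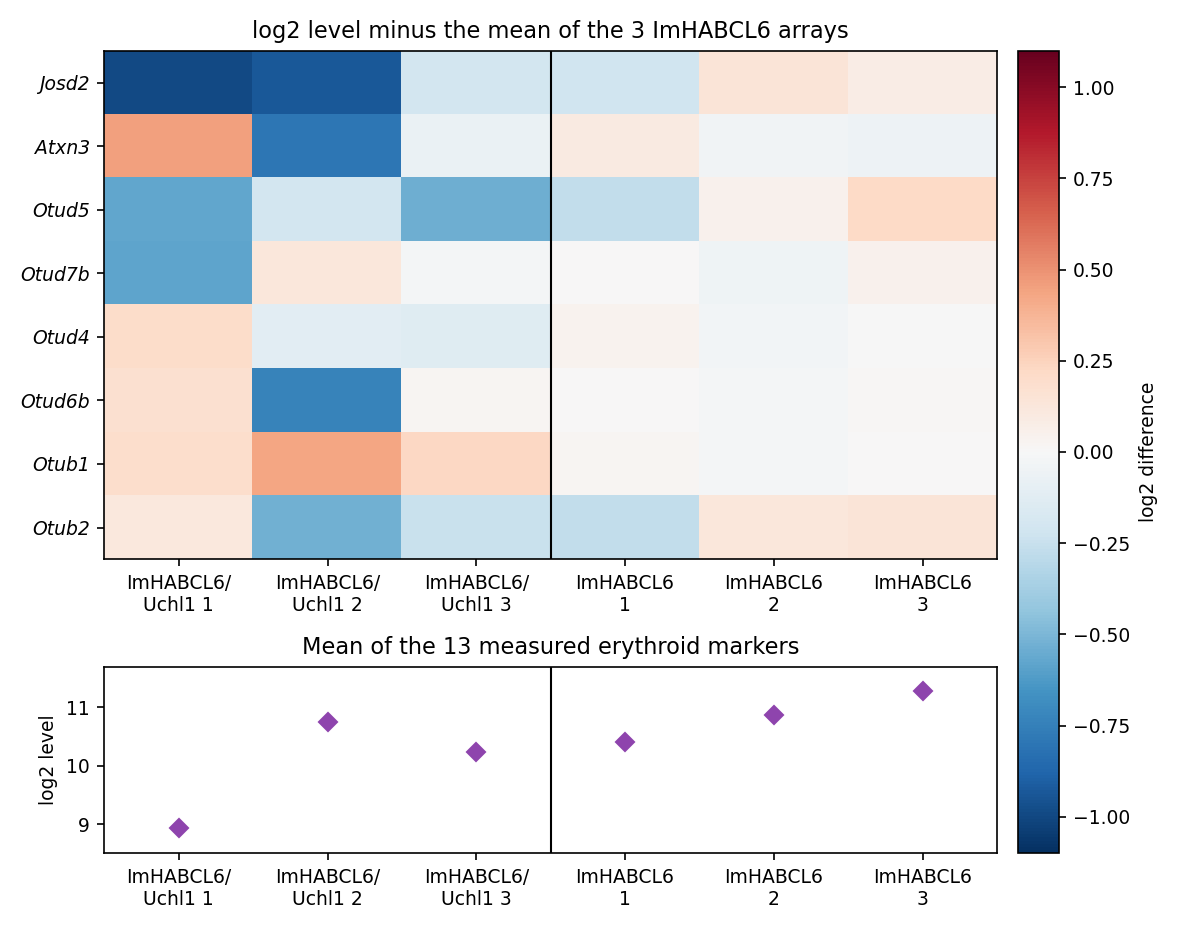
The upper panel shows, for each gene (rows) and array (columns), the log2 level minus the mean of the 3 ImHABCL6 arrays, in blue where lower and red where higher. The lower panel gives the mean log2 level of the 13 measured erythroid markers on the same arrays. Josd2 is low in ImHABCL6/Uchl1 replicates 1 and 2, Atxn3, Otud6b and Otub2 are low in replicate 2, and Otud7b is low in replicate 1, the array with the lowest erythroid mean (8.93).

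Otub1 was the 1 gene of the family higher in ImHABCL6/Uchl1 cells, and its 3 ImHABCL6/Uchl1 arrays were the closest together of any. Besides cutting ubiquitin chains, OTUB1 binds E2 enzymes such as UBE2N and blocks them without using its catalytic site. Its brighter probe set (1448817_at) read 7.58, 7.83 and 7.62 in ImHABCL6/Uchl1 replicates 1 to 3, against 7.41, 7.37 and 7.40 in ImHABCL6 replicates 1 to 3. Every transgenic array lay above every ImHABCL6 array, which was so for 1 of the 8 genes and for 3.95% of all genes, while 0 of the 8 separated in the lower direction, as 5.49% of all genes did. This probe set counted as the brighter one only through its ImHABCL6/Uchl1 values, since the other read higher on average in ImHABCL6 cells (7.41 against 7.39), so the choice itself leaned towards a higher transgenic level and the separation supports nothing. The means were 7.68 ± 0.13 in ImHABCL6/Uchl1 cells and 7.39 ± 0.02 in ImHABCL6 cells (SD, n = 3 each), a 1.22-fold higher level. The difference was 0.28 (SE 0.13, 95% interval -0.01 to 0.58, limma adjusted p = 0.998, unadjusted p = 0.0577, exact permutation p = 0.1, the smallest possible).

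The other Otub1 probe set (1417705_at), listed for the same transcript, did not show this. It read 7.72, 6.76 and 7.36 in ImHABCL6/Uchl1 replicates 1 to 3, against 7.47, 7.58 and 7.19 in ImHABCL6 replicates 1 to 3, a difference of -0.13 (SE 0.24). ImHABCL6/Uchl1 replicate 2 was the highest of the 6 arrays on the first probe set and the lowest on the second. The mean of both probe sets gave a difference of 0.08, so the direction of Otub1 depends on the probe set.

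Otub2, the close relative of Otub1, read 10.02, 9.36 and 9.65 in ImHABCL6/Uchl1 replicates 1 to 3, against 9.63, 10.02 and 10.04 in ImHABCL6 replicates 1 to 3 (1417575_at). The groups overlapped over most of their range. The difference was -0.22 (SE 0.20, 95% interval -0.68 to 0.24, limma adjusted p = 0.998), and it was -0.06 without ImHABCL6/Uchl1 replicate 2, -0.39 without ImHABCL6/Uchl1 replicate 1 and -0.39 with the erythroid covariate. The second, dim probe set (1417576_a_at) gave -0.36 (SE 0.27) and had its lowest value, 4.54, on ImHABCL6/Uchl1 replicate 2.

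**Figure D3:**
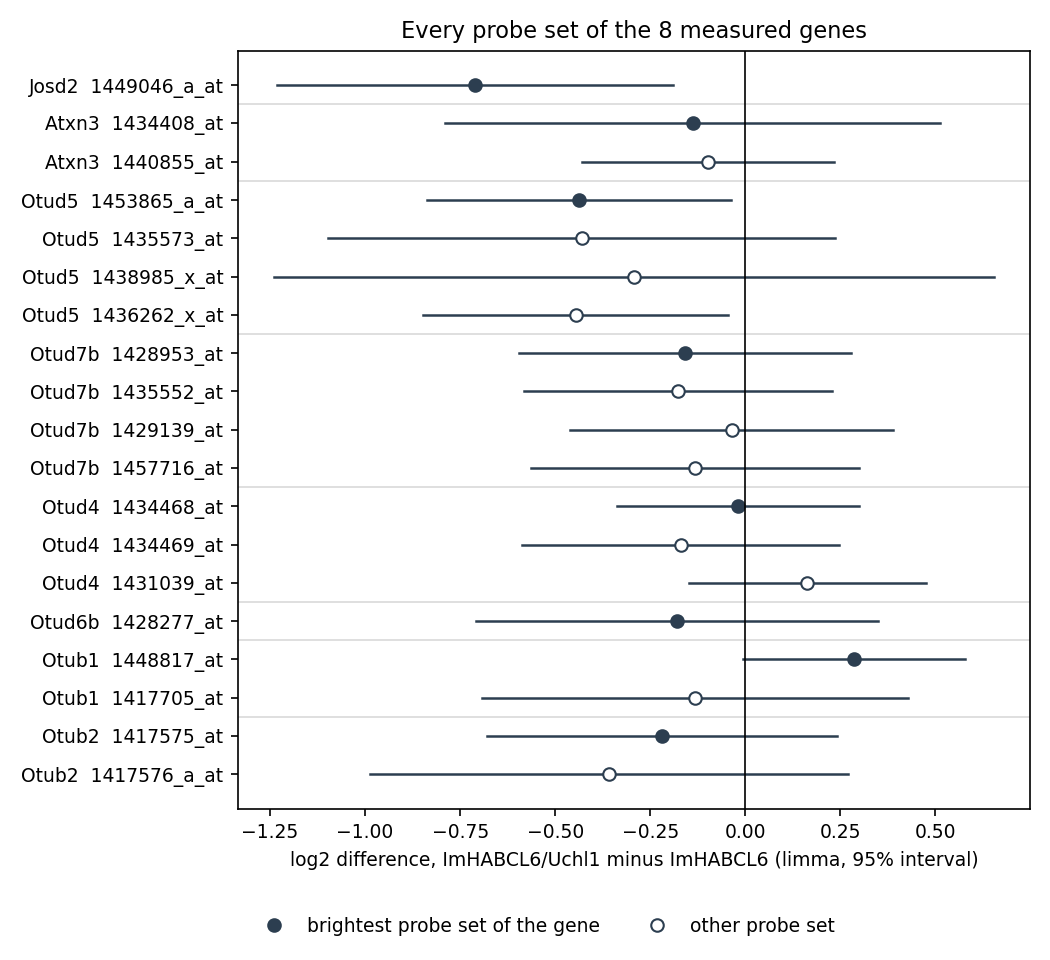
Points are the log2 differences (ImHABCL6/Uchl1 minus ImHABCL6) of all 19 probe sets of the 8 measured genes, filled for the brightest of each gene, and bars are 95% intervals from limma over all probe sets. All 4 Otud5 and all 4 Otud7b probe sets lie below 0, whereas those of Otub1 and Otud4 lie on both sides of it.

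Promoter sequences are shown for Josd2 and Otud5, the genes with the largest differences, and for Otub1, the gene whose groups separated. They run from 250 bases before to 50 after the annotated start, in RefSeq on build GRCm38.p6, 5′ to 3′ on the gene's strand. RefSeq windows were matched for Josd1, Josd2, Atxn3, Otud4, Otud5, Otub1 and Otub2, and Otud5 has 2 annotated starts, of which the one shown has the lower coordinate. Capitals mark matches on either strand to 7 motifs. CCAAT is the box bound by the factor NF-Y, and GGGCGG is the box of SP and KLF factors. CCGGAAG is the core of sites for ETS family proteins, and GCATGCGC is that of the factor NRF1. CACGTG is known as the E box of helix-loop-helix proteins. AGATAA is the usual core of sites for the GATA family, and TTCNNNGAA has the form of STAT or BCL6 sites.
Josd2, chr7:44467730-44468029, plus strand: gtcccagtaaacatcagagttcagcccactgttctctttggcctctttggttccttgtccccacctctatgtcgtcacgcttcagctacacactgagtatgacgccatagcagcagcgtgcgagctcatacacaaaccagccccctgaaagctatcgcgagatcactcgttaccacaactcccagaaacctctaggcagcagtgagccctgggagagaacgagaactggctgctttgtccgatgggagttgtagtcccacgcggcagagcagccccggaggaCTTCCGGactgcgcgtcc
Otud5, chrX:7841581-7841880, plus strand: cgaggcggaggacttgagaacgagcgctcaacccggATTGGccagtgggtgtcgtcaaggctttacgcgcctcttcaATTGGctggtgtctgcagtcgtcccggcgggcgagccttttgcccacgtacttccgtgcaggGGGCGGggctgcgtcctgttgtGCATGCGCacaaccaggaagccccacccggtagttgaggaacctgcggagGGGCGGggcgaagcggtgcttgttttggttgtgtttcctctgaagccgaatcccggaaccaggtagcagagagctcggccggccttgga
Otub1, chr19:7206235-7206534, minus strand: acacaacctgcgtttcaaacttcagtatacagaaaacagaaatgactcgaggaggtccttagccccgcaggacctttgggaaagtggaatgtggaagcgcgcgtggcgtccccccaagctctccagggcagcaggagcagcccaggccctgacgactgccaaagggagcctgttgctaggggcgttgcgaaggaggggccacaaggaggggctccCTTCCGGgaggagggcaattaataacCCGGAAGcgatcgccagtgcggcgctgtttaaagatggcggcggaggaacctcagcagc

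The Josd2 window holds 1 match to CCGGAAG and the Otub1 window 2, a motif found in 8.86% of 32851 promoter windows of this length. The Otud5 window holds 2 matches to CCAAT, 2 to GGGCGG and 1 to GCATGCGC, which occur in 37.4%, 35.7% and 2.71% of all windows. The E box (7.15% of windows), the GATA core (11.2%) and the STAT or BCL6 form (8.3%) were not found in these 3 windows, and no marked match overlaps another motif. All 3 windows are rich in CpG, with 16 CpG in Josd2, 26 in Otud5 and 18 in Otub1, beside a median of 7 over all windows. A match is a description of letters and was not tied to the levels above.

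**Figure D4:**
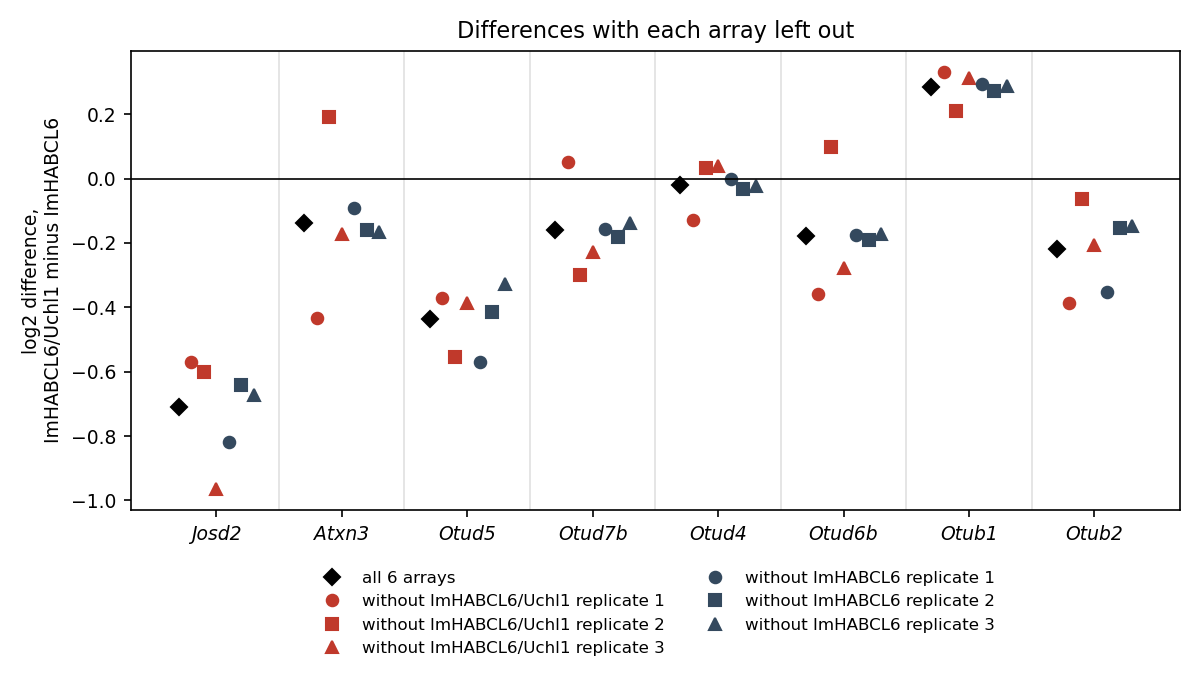
For each gene the log2 difference (ImHABCL6/Uchl1 minus ImHABCL6) is shown with all 6 arrays (black) and with each array left out in turn (red, an ImHABCL6/Uchl1 array; blue, an ImHABCL6 array). Josd2 runs from -0.96 to -0.57 and Otud5 from -0.57 to -0.33, both below 0 throughout, and Otub1 from 0.21 to 0.33, while Atxn3, Otud6b, Otud7b and Otud4 lie on both sides of 0.

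The levels of Josd2 and Otud5 across the 6 arrays were also set against those of the 9097 genes at or above the median level. The genes most like Josd2 were the autophagy protease Atg4b (Pearson r = 0.988), A430005L14Rik (0.988) and the mitotic kinase Cdk1 (0.984), with differences of -0.36, -0.79 and -0.31. Those most like Otud5 were agrin (Agrn, r = 0.997), Pcmtd2 (0.996) and the mitochondrial RNA methyltransferase Mrm1 (0.995), with differences of -1.11, -0.74 and -0.76. With 6 arrays and so many genes, these correlations are a description only.

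Partners and relatives of these enzymes were not called either, with 0 passing limma's adjusted threshold of 0.05 in either direction in each of 6 lists. Among 10 other measured OTU genes 6 were lower and 4 higher, with a median of -0.0041. The smallest p-values there belonged to Vcpip1 (-0.16, SE 0.13), Yod1 (-0.38), Otulinl (0.21) and Alg13 (-0.30). The A20 gene Tnfaip3, a brake on NF-κB, differed by 0.04.

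Of the 9 measured genes of the E2 list set beside Otub1, which includes the E2 variants Ube2v1 and Ube2v2, 7 were lower with a median of -0.07. The smallest p-values belonged to Ube2v2 (-0.26, SE 0.19), Ube2d1 (0.17, SE 0.13) and Ube2e3 (-0.21), and Ube2d1 was separated upward, as 3.95% of all genes were. Ube2n, the best-known E2 partner, was at -0.0018 (SE 0.17). Of 6 measured partners of ataxin-3 and VCP 5 were lower, with a median of -0.11, among them the ligase Stub1 (-0.23, SE 0.14) and Vcp (-0.07). Traf3 had no value, and the 11 measured genes of TRAF and NF-κB signalling were split, 4 lower and 7 higher with a median of 0.04. Their smallest p-values belonged to the ligase Birc2 (-0.38, SE 0.13, limma adjusted p = 0.983), separated downward, and to Traf6 (0.34, SE 0.13, limma adjusted p = 0.983), separated upward. These 2 of 11 stand beside 5.49% of all genes separated downward and 3.95% upward.

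Of 7 measured genes of ubiquitin signalling at DNA damage 6 were lower, and the median was -0.24. The chromatin ligases Rnf168 (-0.27, SE 0.13) and Rnf8 (-0.24, SE 0.13) lay below the ImHABCL6 range on every ImHABCL6/Uchl1 array, and Usp9x (-0.35) and Usp7 (-0.24), which associate with Otud4, overlapped between the groups. Of the ubiquitin and E1 genes only Uba6 was measured, at 0.09 (SE 0.14). None of these values passed over all genes, and the 2 separated genes of this list stand beside 5.49% of all genes separated in that direction.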

How the data were processed

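The RNA was labelled with a biotin kit for 3' amplification, per the labels' protocols. The authors deposited log2 expression levels, and the submitters' processing notes name RMA and Partek without version or settings. RMA compresses differences of dim probe sets. Gene names came from GEO's platform annotation, with Entrez identifiers checked in RefSeq (GRCm38.p6), which changed 0 symbols. Of 45101 probe sets 34945 had 1 symbol and 932 several, which were left unnamed, and 64 Affymetrix control probe sets were left out. The 18193 genes, each read by its brightest probe set, went through lmFit and eBayes of limma 3.58.1 (R 4.3.3), as a two-sided test at an adjusted p of 0.05 (Benjamini-Hochberg, all genes) with no filter on dim genes. The steps were tested on simulated data. The design text gives 3 mice a group, so arrays were treated as separate animals. All 8 measured members and up to 4 genes of smallest p in each partner list were to be named, together with Uchl1, Bcl6 and the 3 genes most like each of the 2 members of largest difference. Ube2n, Vcp and Tnfaip3 were named outside this rule, after their values were seen. Members and lists were chosen with earlier results of these data known. No scan dates or batches came with the values. Coordinates of probe sets are not given because no build was named for the arrays. The closing part gives the effect of other probe set choices, normalizations, variance models, a replicate block, an erythroid covariate and leaving out each array.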

Additional observations from a re-analysis of the deposited data

How the results depend on the processing

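In every alternative run 0 of the 8 genes and 0 of all genes passed limma's adjusted threshold of 0.05. Over 127 values of single genes under the alternatives 120 kept their direction, among them all of Josd2, Otud5, Otub1 and Otub2. Part of this count was fixed in advance. Fitting all probe sets separately, leaving out dim genes, the trend and robust options and the replicate block cannot change a difference. No alternative used the other Otub1 probe set (1417705_at) alone, where the difference was -0.13. The 7 that turned were Otud4 after quantile normalization (0.0599), Otud7b with the erythroid mean as a covariate (0.13), and 5 with an array left out. With arrays left out, differences ran from -0.43 to 0.19 for Atxn3, -0.13 to 0.0399 for Otud4, -0.36 to 0.10 for Otud6b, -0.30 to 0.0511 for Otud7b and -0.39 to -0.06 for Otub2, and the number of genes lower from 4 to 7. Leaving out ImHABCL6/Uchl1 replicate 2 turned Atxn3, Otud4 and Otud6b, replicate 1 Otud7b and replicate 3 Otud4. The erythroid covariate gave -0.63 for Atxn3 and -0.49 for Otud6b, and array weights -0.01 for Otud6b. Josd2 has no value without suffixed probe sets. Replicate numbers are not stated to pair mice: deviations of same-numbered arrays correlated at 0.43, 0.19 and -0.26 across genes, and not every array correlated best with its own number. The replicate block left all differences as they were and called 0 genes, with 1002 at an unadjusted p under 0.05 against 898 without it, and an adjusted p of 0.406 for Josd2. At that unadjusted level there were 2819 genes with array weights and 2685 with the erythroid covariate, each with 2 of the 8. The 2 were Otud5 and Otub1 with array weights, and Atxn3 and Otub1 with the erythroid covariate. Josd2 was in neither pair, at an unadjusted limma p of 0.068 with array weights and 0.072 with the covariate.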

Other observations

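Several of these genes, read by their brightest probe sets, were steadier among the ImHABCL6 mice than among the ImHABCL6/Uchl1 mice. The SD within the group was larger in the ImHABCL6/Uchl1 arrays for 7 of the 8 genes, all but Otud5, and for 69.4% of all genes. It was more than 3 times as large for 5 of the 8 (Atxn3, Otud4, Otud6b, Otud7b and Otub1), beside 18.4% of all genes. Other probe sets of the same genes did not all share this. For Atxn3 1440855_at the SD was 0.14 in ImHABCL6/Uchl1 and 0.16 in ImHABCL6 arrays. For Otud4 1431039_at it was 0.10 and 0.15. The remaining probe sets of these genes had the larger SD in ImHABCL6/Uchl1 arrays, from 0.34 against 0.05 (Otud4 1434469_at) to 0.25 against 0.21 (Otud7b 1435552_at). The median SD of the 8 genes was 0.35 in ImHABCL6/Uchl1 arrays and 0.064 in ImHABCL6 arrays, and over all genes it was 0.22 in ImHABCL6/Uchl1 arrays and 0.15 in ImHABCL6 arrays. This measure was chosen after the values were seen and was not tested. ImHABCL6/Uchl1 replicate 1 was the lowest of the 6 arrays for 3 of the 8 genes (Josd2, Otud5 and Otud7b) and for 17.5% of all genes, and ImHABCL6/Uchl1 replicate 2 for another 3 (Atxn3, Otud6b and Otub2) and for 27.9% of all genes.

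Markers of other cell types also varied between the arrays. The mean log2 level of 4 measured T-cell markers was 5.73 to 6.24 in ImHABCL6/Uchl1 arrays and 5.84 to 5.95 in ImHABCL6 arrays. That of 6 macrophage markers, all 6 higher in ImHABCL6/Uchl1 cells by 0.02 (Adgre1) to 1.14 (Lyz2), was 6.04 to 6.80 in ImHABCL6/Uchl1 arrays and 5.74 to 6.27 in ImHABCL6 arrays. The mean of 5 plasma cell markers was 9.10 to 9.55 in ImHABCL6/Uchl1 arrays and 9.18 to 9.73 in ImHABCL6 arrays. The mean of 5 neutrophil markers, all 5 lower in ImHABCL6/Uchl1 cells, was 5.13 to 5.65 in ImHABCL6/Uchl1 arrays and 5.16 to 6.77 in ImHABCL6 arrays. The value of 6.77 was that of ImHABCL6 replicate 1, beside 5.55 in replicate 2 and 5.16 in replicate 3. Single neutrophil markers differed by -1.27 (Mpo) to -0.03 (Elane). The mean of 5 megakaryocyte and platelet markers was 7.57 to 8.96 in ImHABCL6/Uchl1 arrays and 7.92 to 8.82 in ImHABCL6 arrays. Their part in the levels of the deubiquitinases was not tested.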
